A study of Tachycineta bicolor with 14 samples.

Results

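The density difference described here is that among 9 tree swallow embryos, 5 from high and 4 from low breeding density, out of 14 embryos sequenced in all (7 of each density). The tree swallow (Tachycineta bicolor) is a songbird, and each library holds polyA RNA of 1 whole brain taken at embryonic day 11. Breeding density is that of the mother; it varied naturally, and no agent or mutation was applied. The labels give no sex, nest or mother. The 9 are embryos 1, 2, 4, 5 and 6 of high density and embryos 1, 2, 5 and 7 of low density. The 5 left out are embryos 3 and 7 of high density and embryos 3, 4 and 6 of low density. The division into 9 and 5 was chosen by expression values of these same libraries, with the 5 set apart by genes that lay entirely above or below the other 9, so any gene that marks it describes the choice, whereas the densities come from the labels. The question was how the density difference looks within the 9, and whether its genes move the same way in the 5 embryos that were not used to find them.

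Female birds carry a Z and a W sex chromosome and males carry a pair of Z chromosomes. Dosage compensation of Z genes is incomplete in birds, so many Z genes are more abundant in males, and W genes are transcribed in females. Bird mothers also pass steroid hormones such as testosterone to the embryo in the yolk, in amounts that can vary with their social surroundings. A comparison of densities in an unsexed sample can therefore mix the density with the sexes of the embryos if these are unevenly spread.

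Libraries of the 9 held 4723009 to 6812901 estimated counts at high density and 3950422 to 5851971 at low density, with 12224 to 12351 and 11879 to 12336 genes detected, respectively. Of the left-out embryos, the library of high-density embryo 7 showed the lowest number of genes, 11308, against 12107 to 12528 in the other 4. Most genes are known by an identifier only (tree_swallow and a number). The table pairs 7 of 13375 genes with names, so neither the sex chromosomes nor markers of brain cells could be looked up, and the tissue label was not checked against markers.

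The genes that mark the division differed in number and size between the directions. Of 10774 genes tested over all embryos, 22 (0.204%) were higher in each of the 5 embryos than in any of the 9, and 100 (0.928%) were lower. The 100 lower genes differed by a median of -0.98 on the log2 CPM scale (5 minus 9; quartiles -1.09 and -0.88), and none of them was as far as 8-fold apart. The 22 higher genes differed by a median of 1.41, from 0.45 to 4.30, and 3 of them by 8-fold or more. None of the 22 was at 0 in all of the 9 embryos. These values describe the choice and carry no test, and whether they reflect sex was not tested, since no gene could be placed on a chromosome.

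**Figure D1:**
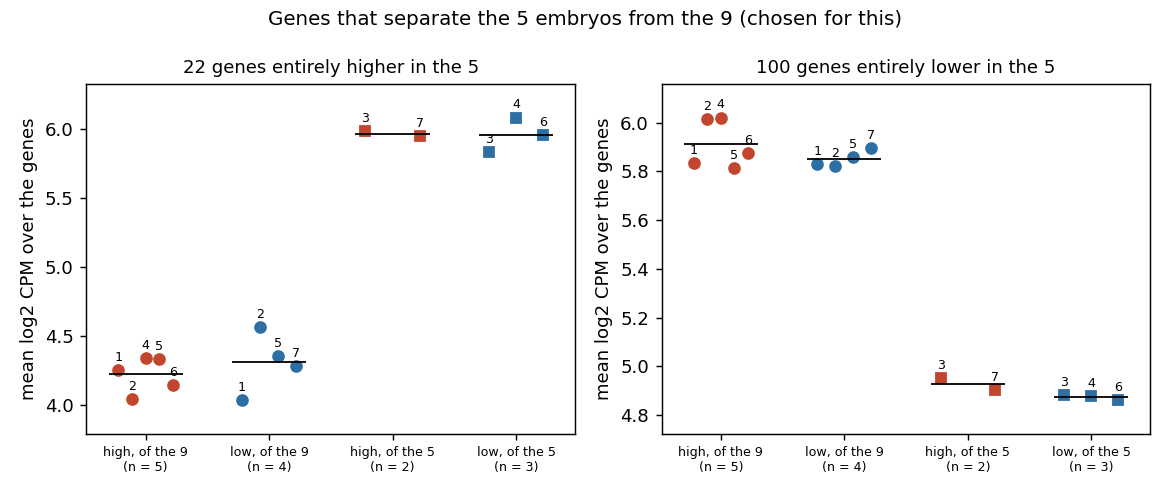
Mean log2 CPM of the 22 genes entirely higher (left) and the 100 entirely lower (right) in the left-out embryos, by embryo; circles are the 9, squares the 5, red high and blue low density, digits the embryo number and lines the group mean. The 9 embryos lie between 4.03 and 4.56 on the left and between 5.81 and 6.02 on the right, and the 5 between 5.84 and 6.08 and between 4.86 and 4.95.

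Within the 9 embryos, the genes that stood furthest from equality were nearly all more abundant at high density, but none passed the threshold set for a call. In edgeR's quasi-likelihood test, 0 of 10997 genes (0%) had a Benjamini-Hochberg adjusted p under 0.05. The lowest adjusted p was 0.0789, and 1994 genes (18.1%) had an unadjusted p under 0.05, of which 1346 (12.2%) were higher and 648 (5.89%) lower. At an adjusted p under 0.1 there were 213 genes (1.94%), 202 higher (1.84%) and 11 lower (0.1%). The other tools made calls at 0.05: 744 genes (6.77%) passed in DESeq2, 630 of them higher, and 631 (5.74%) in limma-voom with quality weights, 504 of them higher. The median log2 fold change over all genes tested was -0.03. The 213 genes are followed below as the list of strongest differences, under a threshold looser than that of the call.

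The 202 higher genes had a median log2 fold change (high minus low) of 2.004, and 101 of them differed by 4-fold or more. Leaving aside 1 gene with no count in any of the 4 low-density embryos, their values ran from 0.86 to 5.57. They were scarce at low density, at a median level of 10.1 CPM, and reached 41.4 CPM at high density. The same medians taken over every gene tested were 26.7 and 27.1 CPM. Summed, the higher genes made up 0.484 ± 0.087% of estimated counts in the low-density embryos (SD, n = 4; 0.384 to 0.591%) and 1.86 ± 0.84% in the high-density embryos (SD, n = 5; 0.975 to 3.18%). The share at high density was both larger and more uneven, and the groups did not overlap. The 11 lower genes had a median log2 fold change of -1.10 and were abundant, with median levels of 137.7 CPM (low density) and 64.2 CPM (high density). Both lists were chosen for their difference in these embryos.

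At the looser threshold of an unadjusted p, the surplus of higher genes lay in the scarcer part of the transcriptome, but in the list at an adjusted p under 0.1 it was present among scarce and abundant genes alike. When genes were split into 3 equal parts by mean level, the scarcest part (1.25 to 14.5 CPM) held 577 higher (15.7%) and 118 lower genes (3.22%) at an unadjusted p under 0.05. In the middle part these numbers were 468 (12.8%) and 209 (5.70%). In the most abundant part (52.2 CPM and above), 301 genes (8.21%) were higher and 321 (8.76%) lower, so that neither direction prevailed. At an adjusted p under 0.1, all 3 parts held more higher than lower genes, with 57, 78 and 67 higher against 1, 3 and 7 lower.

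The high-density embryos of the 9 did not carry the difference equally. On the scale of mean log2 CPM over the 202 genes, relative to the mean of the 4 low-density embryos of the 9, high-density embryo 2 stood at 2.75, embryo 4 at 2.25, embryo 1 at 2.001, embryo 6 at 1.74 and embryo 5 at 1.005. The low-density embryos stood at 0.30 (embryo 1), 0.06 (embryo 2), -0.45 (embryo 5) and 0.09 (embryo 7). Every high-density embryo was above every low-density one, with embryo 5 the nearest to them. Embryo 2 was the highest of the 9 in 139 of the 202 genes and embryo 4 in 42, and in 119 genes (58.9%) these embryos held both top places. The 202 genes were chosen as higher at high density in these embryos, and no such count over all tested genes is given here.

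Taken over all 10997 genes, whatever their test result, embryo 2 was also the most distant from the low-density range. Its level was above that of each low-density embryo in 31.7% of genes and below each in 32.8%, and embryo 4 did so in 28.8% and 26.8%. Embryo 1 was outside in 24.3% and 25.2%, embryo 5 in 20.1% and 17.7% and embryo 6 in 18.9% and 17.5%. The mean correlation with the 4 low-density embryos (Pearson's r of log2 CPM across genes) was 0.790 for embryo 2, 0.853 for embryo 4, 0.895 for embryo 1, 0.926 for embryo 6 and 0.947 for embryo 5. Among themselves, the low-density embryos had mean correlations of 0.920 to 0.952. The left-out low-density embryos 3, 4 and 6, of the other class, were above in 21.3%, 12.6% and 11% of genes. They were below in 23.6%, 13.2% and 16.7%. High-density embryos 5 and 6 thus lay within the range of low-density embryos on these measures. For the shares above and below, that range comes from embryos of the other class. Of those, only low-density embryo 3 lay further out than high-density embryos 5 and 6. High-density embryos 1, 4 and 2 lay further out in both directions, embryo 2 the furthest and embryo 4 next. The density difference is also given without embryos 2 and 4.

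**Figure D2:**
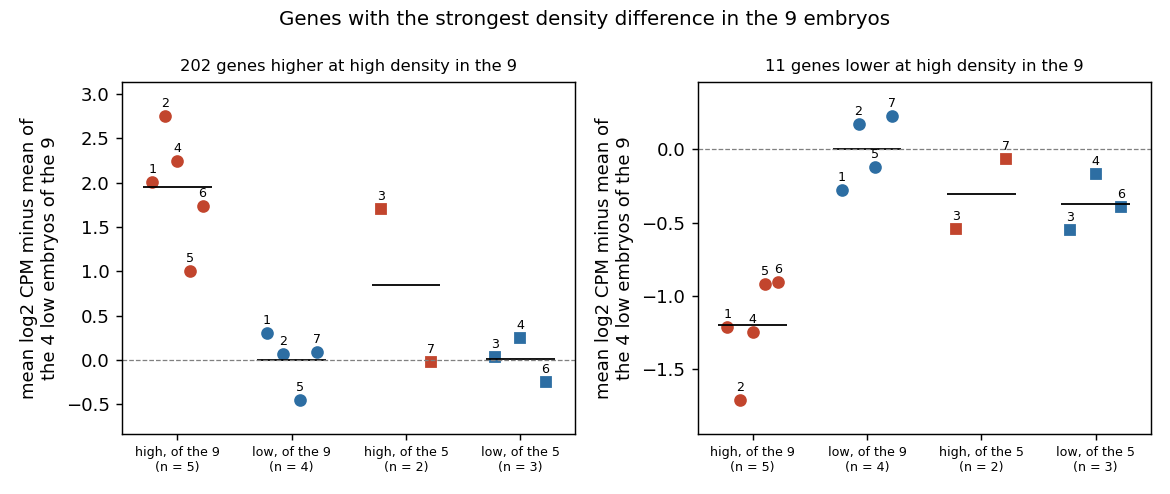
Mean log2 CPM, minus the mean of the 4 low-density embryos of the 9, over the 202 higher (left) and 11 lower (right) genes at an adjusted p under 0.1 in the 9; symbols as by class and density, digits are embryo numbers and lines group means. The 5 high-density embryos of the 9 lie from 1.005 to 2.75 on the left; of the left-out ones, embryo 3 lies at 1.70 and embryo 7 at -0.02, among the low-density embryos.

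Without embryos 2 and 4, 0 genes passed an adjusted p of 0.05 in edgeR (0%; 1158, or 10.6%, at an unadjusted p under 0.05) and 12 (0.11%) passed 0.1, while DESeq2 called 221 and limma-voom 592 at 0.05. The median log2 fold change of the list was then 1.57 for 198 higher genes and -0.91 for the 11 lower ones, though these had been chosen with both embryos included. Leaving out high-density embryo 5 had the opposite effect, with 462 genes at an adjusted p under 0.05 (411 higher, 51 lower) and 1213 at 0.1. Without high-density embryo 2 there were 44 genes at 0.1, and without any other of the 9 there were 0, with 1296 to 2354 genes at an unadjusted p under 0.05 (edgeR).

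**Figure D3:**
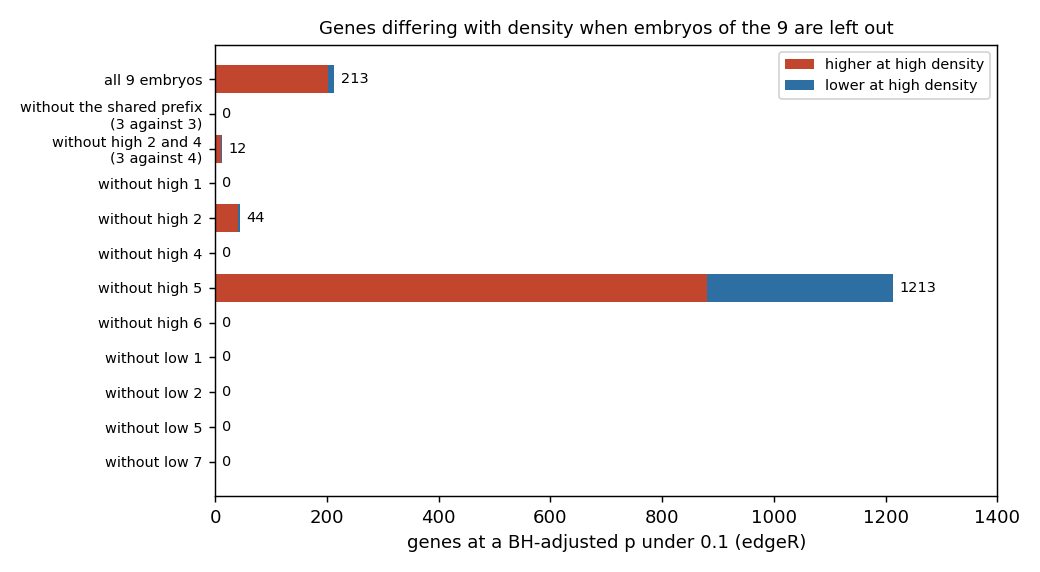
Number of genes at an adjusted p under 0.1 in edgeR's test of density in the 9 embryos, and with embryos left out; red bars are genes higher and blue bars genes lower at high density. The count is 213 with all 9 embryos, 1213 without high-density embryo 5, 44 without embryo 2, 12 without embryos 2 and 4, and 0 in the other settings drawn.

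The sample codes begin with letters whose meaning the labels do not give. The 9 embryos carry 6 such prefixes, of which 1 occurs in both densities, in high-density embryos 4 and 6 and low-density embryo 5. These stood at 2.25, 1.74 and -0.45 on the 202 genes. In the remaining 3 high- and 3 low-density embryos, edgeR called 0 genes at 0.05 and 0 at 0.1, with 914 at an unadjusted p under 0.05. There, the median log2 fold change was 1.93 for 200 of the higher genes (median SE 0.52) and -1.13 for the 11 lower ones, against SEs of 0.43 and 0.25 in all 9. A model with the prefix as a term takes the density difference from the 3 embryos of the shared prefix. In it 0 genes passed 0.05 (793 at an unadjusted p under 0.05, edgeR), but the change was about as large, with a median log2 fold change of 2.40 for the 202 higher and -0.99 for the 11 lower genes, and the median SEs were 0.76 and 0.44. All 213 genes kept their direction there, though the same embryos had served to choose them. Apart from the shared prefix, prefix and density cannot be told apart in the 9.

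Because nothing passed, the genes named by identifier are those with the smallest p in each direction that kept their direction without any 1 of the 9 embryos. tree_swallow003504 stood at 27.7, 25.3, 31.4, 15.9 and 23.7 CPM in high-density embryos 1, 2, 4, 5 and 6 and at 6.59, 7.38, 6.89 and 6.06 CPM in low-density embryos 1, 2, 5 and 7. The low-density values were tightly grouped and the groups did not overlap. Its log2 fold change was 1.86 ± 0.25 (SE; adjusted p = 0.0789 in edgeR). In the left-out embryos it was at 28.1 CPM in high-density embryo 3 and 11.9 in embryo 7. Low-density embryos 3, 4 and 6 were at 9.79, 9.23 and 6.28 CPM, without overlap (log2 fold change 1.24 ± 0.47, SE, adjusted p = 0.699 in edgeR). Of all genes tested in the 5, 10.8% lay entirely above at high density and 11.4% entirely below, so such a separation is common there. In the 9, where the genes named here were chosen for their small p, it was 4.65% and 2.56% of all genes tested.

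tree_swallow000829 was at 11.9, 12.7, 13.2, 14.3 and 9.44 CPM in the high-density embryos of the 9, in the same order, and at 3.12, 1.73, 2.85 and 3.16 CPM in the low-density ones. Here embryo 5 was the highest, unlike in most genes of the list. The log2 fold change was 2.17 ± 0.29 (SE; adjusted p = 0.0789 in edgeR). The left-out embryos overlapped, with 10.1 and 4.82 CPM in high-density embryos 3 and 7 and 7.50, 4.53 and 4.11 CPM in low-density embryos 3, 4 and 6.

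tree_swallow004832 was lower at high density in the 9, at 47.8, 55.3, 53.8, 82.0 and 81.9 CPM, than at low density, at 206.9, 206.7, 132.0 and 201.7 CPM. The groups did not overlap, and low-density embryo 5 was the closest to the high-density values (log2 fold change -1.55 ± 0.22, SE; adjusted p = 0.0789 in edgeR). In the left-out embryos it went from 81.5 CPM in high-density embryo 3 to 317.7 CPM in embryo 7, with 251.9, 104.4 and 226.1 CPM in low-density embryos 3, 4 and 6. The fitted log2 fold change there was 0.00 ± 0.59 (SE).

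tree_swallow000818 was at 62.5, 50.9, 68.5, 74.6 and 88.4 CPM in the high-density and at 97.2, 159.4, 138.9 and 155.4 CPM in the low-density embryos of the 9 (log2 fold change -1.01 ± 0.21, SE; adjusted p = 0.0874 in edgeR). The highest high-density and lowest low-density values were close, but did not overlap. The left-out embryos overlapped on this gene too, at 115.7 and 84.9 CPM against 85.0, 163.9 and 104.8 CPM. Each of the 4 genes kept its direction in 20 of 20 other settings and passed 0.05 in 3, which were DESeq2, limma-voom and the fit without high-density embryo 5. In the 9 settings that left out 1 embryo, the direction had been fixed by the naming rule. The rest reuse the embryos by which the genes were chosen.

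**Figure D4:**
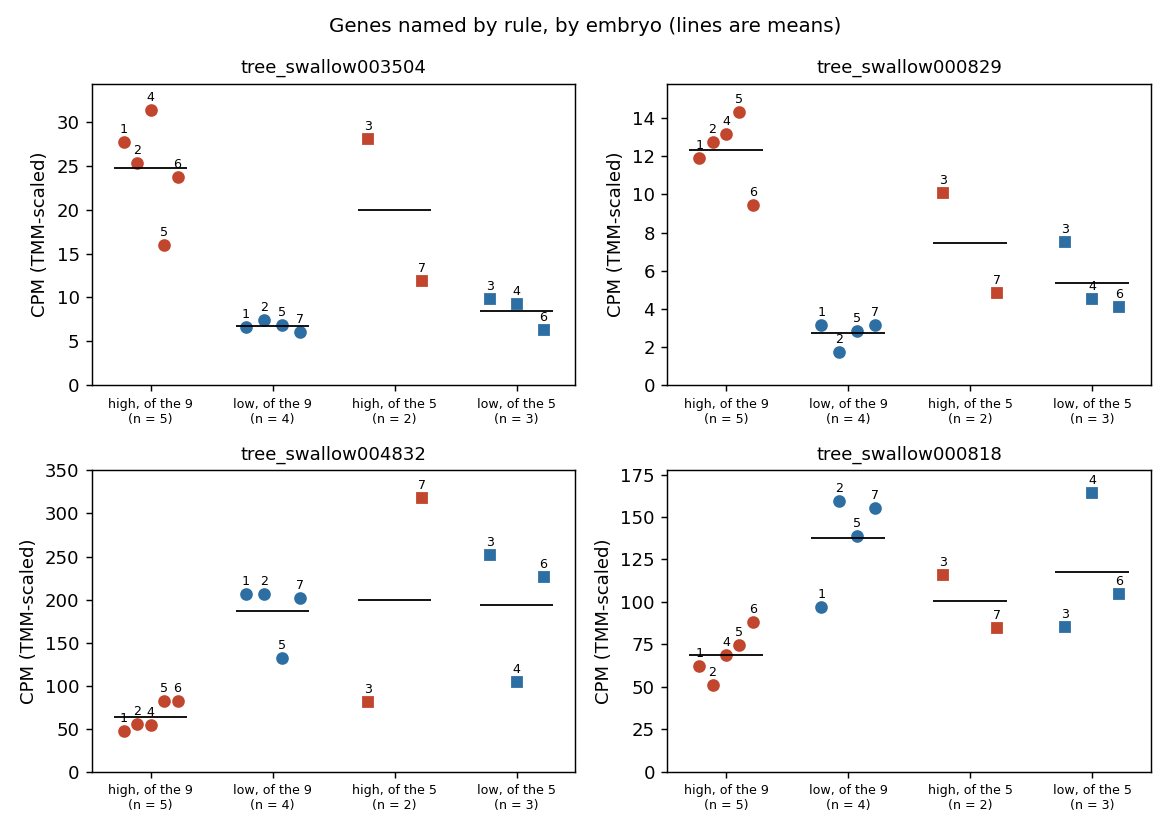
CPM on TMM-scaled library sizes of the 4 genes named by rule, by embryo; circles are the 9, squares the left-out 5, red high and blue low density, digits the embryo number and lines the group mean. In the 9, where the genes were chosen for their small p, the densities do not overlap on any of the 4. Of all genes tested in the 9, 4.65% lie entirely above at high density and 2.56% entirely below. In the 5 they overlap on all but tree_swallow003504. Of all genes tested in the 5, 10.8% lie entirely above at high density and 11.4% entirely below.

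The gene with no count in any low-density embryo of the 9, which is also not named in the file, was chosen after its values were seen. It held 4.54, 5.77, 4.62, 1.48 and 3.47 CPM in high-density embryos 1, 2, 4, 5 and 6, or 21.1, 38.7, 33.5, 9.27 and 17.6 estimated counts. Against the limit of 3 counts in each low-density library, this mean of 3.98 CPM was at least 6.38-fold higher (edgeR adjusted p = 0.0789). The left-out embryos did not follow the density, with 0 counts in high-density embryo 3, 15 in embryo 7, 0 in low-density embryos 3 and 4 and 6.94 in low-density embryo 6.

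All 7 entries that carry gene names were tested in the 9, and none passed. The entry named for the histone variant H3.3 (h3f3b; h3-3a, tree_swallow023102), which is laid down in chromatin outside replication, stood at 1525, 1753, 1325, 1164 and 1795 CPM at high density in the 9. At low density it was at 1388, 1263, 1484 and 1791 CPM, so the groups overlapped (log2 fold change 0.02 ± 0.19, SE; adjusted p = 0.958 in edgeR). A further entry of the same name (tree_swallow043122) was at 277 ± 34 CPM at high (SD, n = 5) and 354 ± 107 CPM at low density (SD, n = 4), with a log2 fold change of -0.36 ± 0.20 (SE; adjusted p = 0.361 in edgeR).

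The entries for the nucleosome histones H2B (tree_swallow015543) and H4 (tree_swallow019285) had log2 fold changes of 0.10 ± 0.39 and 0.26 ± 0.34 (SE; adjusted p = 0.906 and 0.695 in edgeR). The entry that carries names of RPL9 pseudogenes (tree_swallow015752), after a large-subunit ribosomal protein, was at 2215 ± 355 CPM at high density (SD, n = 5). At low density it was at 1844 ± 691 CPM (SD, n = 4). Its log2 fold change was 0.26 ± 0.25 (SE, adjusted p = 0.591 in edgeR). Histone genes and ribosomal protein genes occur in near-identical copies, among which reads may be split, so these values are uncertain.

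Tuba3a (tree_swallow006821), an alpha-tubulin gene, came closest among the named entries. It was at 10.8, 6.96, 3.36, 2.80 and 4.62 CPM in the high-density embryos of the 9 and at 1.04, 2.51, 1.66 and 4.74 CPM in the low-density ones, which overlapped because of low-density embryo 7. Its log2 fold change was 1.20 ± 0.55 (SE; adjusted p = 0.278 in edgeR) in the 9 and 0.21 ± 0.65 (SE; adjusted p = 0.957 in edgeR) in the 5. HSFY2, named for a heat shock transcription factor family member that is Y-linked in humans, had 0 to 17 estimated counts per embryo in the 9 (log2 fold change 0.52 ± 0.79, SE; adjusted p = 0.739 in edgeR).

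In the 5 left-out embryos, the higher genes of the list lay on the same side of 0 far more often than genes in general. This was not seen for the lower ones, but these were only 11, too few to settle it. The fits of the 9 and of the 5 share no embryo. Of the 202 higher genes, 192 could be tested in the 5, and 186 of these (96.9%) were higher at high density there too, with a median log2 fold change of 1.07 against 1.97 in the 9. Of all 5021 genes that were higher in the 9, whatever their size, 73.3% were higher in the 5, with a median of 0.28. At an unadjusted p under 0.05 in the 5 and in the same direction were 74 of the 192 (38.5%) and 6.99% of the 5021. Of the 11 lower genes, 5 were lower in the 5 (45.5%), with a median of 0.00, where 64.7% of the 5666 genes lower in the 9 were.

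With all 9 embryos, both directions of the broader list lay above their background by direction, but only the higher genes did so by unadjusted p in the 5. Of 1252 genes higher in the 9 at an unadjusted p under 0.05, 1096 (87.5%, against the 73.3% of all genes higher in the 9) were higher in the 5, with a median log2 fold change of 0.60. Of 645 lower genes, 462 (71.6%, against 64.7%) were lower in the 5, with a median of -0.21, where that of all genes lower in the 9 was -0.15. At an unadjusted p under 0.05 in the 5 and in the same direction were 18.5% of these higher genes, against 6.99%. Of the lower genes it was 5.89%, against 6.41%. With the lists taken from the 9 without high-density embryos 2 and 4, it was 21.4% of the higher genes, against 6.66%. Of the lower genes it was then 7.67%, against 4.81%. By direction, 83.6% of these higher genes went the same way in the 5, against 64.6%, and 62.2% of the lower ones, against 56.8%. Genes vary together, so these shares carry no p. In the 5 embryos by themselves, 0 of 10881 genes (0%) passed an adjusted p of 0.05 or 0.1 in edgeR, with 766 (7.04%) at an unadjusted p under 0.05. By DESeq2 23 genes (0.211%) passed and by limma-voom 0, the latter with 676 (6.21%) at an unadjusted p under 0.05. Leaving out high-density embryo 3 or 7 leaves 1 high-density embryo, so no calls are given for these fits.

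**Figure D5:**
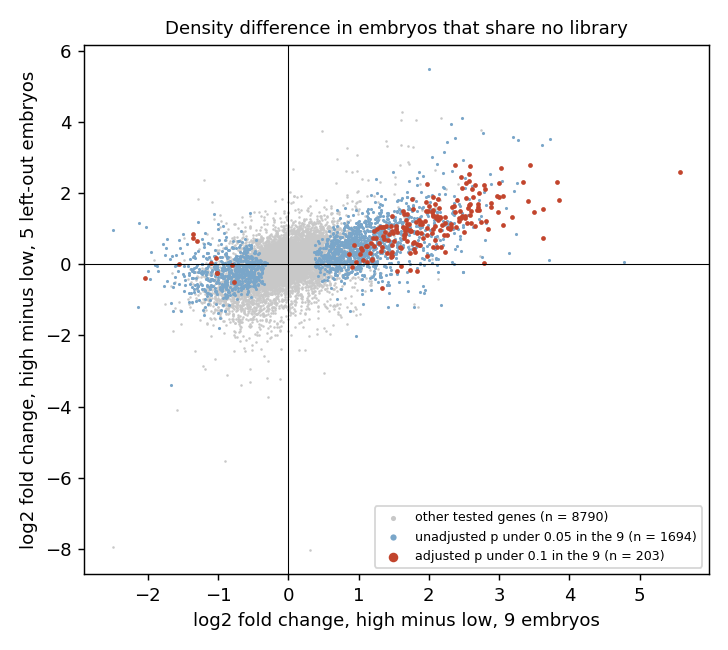
Log2 fold change (high minus low density) of 10687 genes in the 9 embryos (horizontal) and in the 5 left-out embryos (vertical), with no library shared; red points are the 203 genes at an adjusted p under 0.1 in the 9, pale blue points other genes at an unadjusted p under 0.05 and grey points the rest. Of the red points on the right, 186 of 192 (96.9%) lie above 0, where 73.3% of all genes on the right do. Without high-density embryo 3 it is 104 of 191 (54.5%), against 57.1%. The 11 red points on the left lie on both sides.

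The agreement of the higher genes rested on 1 of the 2 left-out high-density embryos. On the mean log2 scale of the 202 genes, high-density embryo 3 stood at 1.70, inside the range of the high-density embryos of the 9, and embryo 7 at -0.02. The left-out low-density embryos stood at 0.04 (embryo 3), 0.25 (embryo 4) and -0.25 (embryo 6), so embryo 7 lay among them. High-density embryo 3 exceeded all 4 low-density embryos of the 9 in 198 of the 202 genes (98.0%), where it did so in 22.9% of all genes. Embryo 7 did so in 69 (34.2%), where it did so in 28.7% of all genes. Low-density embryos 3, 4 and 6 did so in 22.8%, 31.7% and 4.46%, where they did so in 21.3%, 12.6% and 11% of all genes. The 202 genes were chosen for low levels in the same 4 low-density embryos, which bears on every such share.

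Without high-density embryo 3, 104 of 191 higher genes (54.5%) went the same way in the remaining embryos, at a median of 0.05, against 57.1% of all genes higher in the 9. Without embryo 7 it was 199 of 200 (99.5%), at a median of 1.57, against 64.7%. When any 1 of the low-density embryos was left out, 95.9% to 98.4% of the higher genes went the same way. The share of all genes higher in the 9 was then 71.4% to 77%. Where a high-density embryo is left out, the fit rests on the other one, which is then assumed to vary like the low-density embryos. The left-out embryos have 5 letter prefixes, 1 each, and each also occurs in the 9. Low-density embryo 6 carries the prefix found in both densities, and the others occur in the 9 at the same density only. Prefix and density therefore cannot be told apart in this agreement. High-density embryo 7 was also the library with the fewest genes detected and the lowest TMM factor (0.740). Over all tested genes, it stood at -0.13 relative to the mean of the low-density embryos of the 9, and high-density embryo 3 at 0.11. The part of these in the position of embryo 7 was not tested.

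For the 648 genes lower in the 9 at an unadjusted p under 0.05, the left-out embryos were not ordered by density. On the mean log2 scale relative to the low-density embryos of the 9, high-density embryos 3 and 7 stood at -0.38 and -0.36, and low-density embryo 3 stood at -0.37 beside them. Low-density embryos 4 and 6 were at -0.01 and -0.12. In the 9, the high-density embryos stood between -1.52 and -0.46 and the low-density embryos between -0.24 and 0.15.

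Of the genes separated without overlap in the 9, nearly the same share was separated the same way in the 5 in either direction. Of those separated in the 5, the share also separated in the 9 was larger for genes above than below. The share of all genes separated in the 9 differed in the same way (4.52% above and 2.62% below), so this is no difference particular to those genes. In the 9, the high-density values lay entirely above the low-density ones in 511 genes (4.65%) and entirely below in 281 (2.56%). Of 10687 genes tested in both sets, 483 (4.52%) lay entirely above in the 9 and 1149 (10.8%) in the 5, and 143 in both, which is 29.6% of the former and 12.4% of the latter. Entirely below were 280 genes (2.62%) in the 9 and 1218 (11.4%) in the 5, and 82 in both (29.3% and 6.73%). By comparison, 2 genes lay entirely above in the 9 and below in the 5, and 10 the other way round.

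The test of the difference itself found no gene whose density difference was distinct between the 9 and the 5. In edgeR, the interaction of density and class passed an adjusted p of 0.05 in 0 of 10774 genes (0%), with 282 genes (2.62%) at an unadjusted p under 0.05. DESeq2 and limma-voom each called 0, with 358 (3.32%) and 189 (1.75%) at an unadjusted p under 0.05. The interaction had a median SE of 0.53 log2 units, against 0.25 for density with the class as a term, so these counts do not show that the differences were equal. Of the 4 genes named by rule, tree_swallow000829 had an interaction of -1.68 ± 0.54 and tree_swallow004832 one of 1.58 ± 0.60 (SE, both adjusted p = 0.9998 in edgeR). For tree_swallow003504 it was -0.62 ± 0.47 and for tree_swallow000818 0.77 ± 0.39 (SE, both adjusted p = 0.9998 in edgeR). In each the difference was nearer to 0 in the 5. The 4 genes had been chosen for their small p in the 9, so a difference nearer to 0 in the 5 is in part set by that choice.

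Holding the division fixed over all 14 embryos, by a class term in the model, left genes that passed. Density was then called in 324 of 10774 genes (3.01%), 298 higher (2.77%) and 26 lower (0.241%), by edgeR's test at an adjusted p under 0.05. At 0.1 there were 937 (8.7%), and at 0.05 DESeq2 called 1096 (10.2%) and limma-voom 970 (9%). The model without this term, which uses the same embryos, called 615 (5.71%), 546 higher and 69 lower. The called higher genes had a median log2 fold change of 1.56, from 0.56 to 4.57, and the lower ones of -0.82, from -0.59 to -1.25. tree_swallow003504 had a log2 fold change of 1.65 ± 0.24 (SE, adjusted p = 0.0248 in edgeR) and tree_swallow000829 of 1.58 ± 0.34 (SE, adjusted p = 0.0295 in edgeR), and both rose. The genes named by rule had been chosen for their small p in the 9, whose embryos this fit reuses. In the 5 left-out embryos alone, the adjusted p of these rising genes was 0.699 and 0.863 (edgeR). tree_swallow004832 (-0.99 ± 0.34, SE) and tree_swallow000818 (-0.73 ± 0.20, SE) did not pass (edgeR adjusted p = 0.113 and 0.0588).

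This count moved with single embryos and with the treatment of the prefix. It was 0 without high-density embryo 3 or without low-density embryo 2, 5 or 6 (edgeR), with 1799 to 2462 genes at an unadjusted p under 0.05. It was 928 without high-density embryo 5 and 728 without embryo 7. Without high-density embryos 2 and 4 it was 26, and it was 0 both with a prefix term and without the embryos of the shared prefix (edgeR; 1040 and 1065 at an unadjusted p under 0.05). The 324 genes all kept their direction in both of these fits, though they had been chosen with the same embryos. The median log2 fold change of the 298 higher genes was 2.005 with the prefix term (median SE 0.72) and 1.44 without the shared prefix (median SE 0.42), against 1.56 (median SE 0.35) in the model without either change. That of the 26 lower genes was -0.88 and -0.78, against -0.82.

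As a single value over every gene tested, the densities accounted for 29.5% of the squared distance within the 9, where 12.5% is the mean over all 126 ways to name 4 of the 9 as low density (exact permutation test, p = 0.0397; the smallest p possible is 0.00794). The share became 27.1% when high-density embryos 2 and 4 were left out, against a mean of 16.7% (exact permutation p = 0.143, the smallest possible being 0.0286). In the 5 left-out embryos the share was 29.4%, against a mean of 25% (exact permutation p = 0.400, where no result can go below 0.1).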

How the data were processed

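Whole-brain polyA RNA of 14 tree swallow embryos was profiled. Per the labels' protocols, a column kit yielded the RNA and the xGen kit the libraries. Reads went through fastp 0.20.1 and Salmon 1.9.0, per the submitters' processing notes. Which transcriptome and build served as reference, how transcripts were joined to genes and what was filtered is not given in the sources used here. In the deposited table the authors gave unnormalized estimated counts for 13375 genes, of which 3.05% of values were not whole (tolerance 1e-06). No coordinates are given, since the file holds none and no annotation was used.

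Estimated counts were rounded. The expression filter was filterByExpr of edgeR (at least 10 counts, total of at least 15; 10997 genes in the 9, 10881 in the 5, 10774 in all) and scaling was by TMM. Density was tested with edgeR's robust quasi-likelihood test (edgeR 4.0.16, R 4.3.3) with Benjamini-Hochberg adjustment over all genes tested, in the 9, in the 5, and in all 14 with a class term or an interaction. Fold changes are log2, high minus low, with standard errors implied by the F statistic; embryo levels are CPM on TMM-scaled sizes, and distances use log2 CPM (prior count 2). Distance shares were tested by exact permutation of embryos. The steps were tested on simulated data. Alternatives were DESeq2 1.42.0, limma-voom (limma 3.58.1), other scaling factors (RLE, upper quartile), other filters, thinning, the code prefix and leaving out embryos.

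The members and lists were chosen with earlier results of these data known. Genes were named by rule: past an adjusted p of 0.05 in the 9 with a mean of at least 1 CPM and one direction without any 1 embryo, the 2 higher and 2 lower with the largest change, or, where too few passed, those with the smallest p; the 7 entries with names were added. The looser list at an adjusted p under 0.1 was adopted after the test at 0.05 called none. Embryos are numbered within a density in accession order, which pairs nothing. Since no label tells whether embryos shared a nest, the spread behind each p-value is that of these samples only. Totals ran from 3950422 to 6812901, so the limit set by a count of 0 (3 counts) is 0.759 and 0.440 CPM before TMM scaling and covers counting error only.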

Additional observations from a re-analysis of the deposited data

Results flagged for a closer look

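Of 26 groups of embryos checked for a single distant value (library total, genes detected and the 11 genes named, within each density of the 9), 2 were marked, where chance marks about 1 in 20. For tree_swallow004832, low-density embryo 5 held 132.0 CPM and the other low-density embryos of the 9 held 201.7 to 206.9 CPM. For the entry with RPL9 pseudogene names (tree_swallow015752), high-density embryo 5 held 1588 CPM. The other high-density embryos of the 9 held 2284 to 2438 CPM.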

How the results depend on the processing

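The absence of calls at an adjusted p of 0.05 in the 9 held in edgeR with RLE or upper-quartile factors, with nearly no filter or one of 5 CPM, after thinning, with the prefix as a term or its shared letters left out, and with the spread of all 14 embryos (793 to 2172 genes at an unadjusted p under 0.05). It did not hold in DESeq2 (744) and limma-voom (631), nor, without high-density embryos 2 and 4, in DESeq2 (221) and limma-voom (592), nor at 0.1 (213); leaving out 1 embryo gave 0 to 462. The count at 0.1 was 12 without high-density embryos 2 and 4, 0 without the shared prefix, and 0 to 1213 without 1 embryo. With the class term the count of 324 was 1096 in DESeq2, 970 in limma-voom, 937 at 0.1, 26 without high-density embryos 2 and 4, 0 with the prefix term, 0 without the shared prefix, and 0 to 928 without 1 embryo. Higher genes were 92.0% of calls in edgeR, 77.4% in DESeq2 and 71.8% in limma-voom. Without the class term the 615 calls became 1339 in DESeq2, 1406 in limma-voom and 110 without high-density embryos 2 and 4.

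In the 5, DESeq2 called 23, and leaving out 1 embryo gave 0 to 240. The interaction stayed at 0 in the alternatives run but for 1 gene without high-density embryo 3 (range 0 to 1). The distance share in the 9 was 27.1% without high-density embryos 2 and 4 (exact permutation p = 0.143) and 24.6% to 40.7% without 1 embryo; its exact permutation p ran from 0.0286 without high-density embryo 5 to 0.107. Same-direction genes in the 5 numbered 191 of 203 (94.1%) for the list at 0.1, against 68.7% of all genes. At an unadjusted p under 0.05 they numbered 1558 of 1897 (82.1%). With DESeq2 in both fits it was 610 of 698 (87.4%, against 68.3%). There the higher genes were at 91.8%, against 73.7%, and the lower ones at 64.9%, against 63.6%. For the list at 0.1, it was 109 of 202 (54%, against 61%) without high-density embryo 3. Without embryo 7 it was 205 of 211 (97.2%, against 64.8%), and the other omissions lay between. The cause of these shifts was not tested. No paired analysis was possible because the labels give no replicate numbers. Depth limits genes near 3 counts.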
